A study of Mus musculus with 7 samples.

Results

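The Usp17-like genes are a small family of mouse deubiquitinases, and the 5 described here are *Usp17la*, *Usp17lb*, *Usp17lc*, *Usp17ld* and *Usp17le*. They were selected on gene symbol as tandem paralogs, and the family was chosen by the genotype means of *Usp17lb*, one of the highest rises in these same data, so its difference between genotypes is a description and was not tested. All 5 have a row among the 22877 rows of the table. The libraries, 4 WT and 3 *Mfn1*-/-, were each made from 5 pooled oocytes, taken out of secondary follicles of mice 8 weeks old with the strain label C57BL/6J. *Mfn1*-/- stands for floxed *Mfn1* mice carrying a *Zp3-Cre* transgene, in which the Zp3 promoter drives Cre in the growing oocyte, and the WT mice were littermates. The other cells of the *Mfn1*-/- follicle keep the gene. The table gives every gene a single mean for each genotype, in normalized counts, and their total over the 7 libraries. Values of single libraries, their spread and their depth are not in it, so every difference below compares 2 means without an error. The targeted gene, *Mfn1*, stood at 0.0577 in the libraries labelled *Mfn1*-/- and at 0.616 in WT, a log2 difference of -2.18 after adding 0.1 to both means.

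USP17 proteins belong to the ubiquitin-specific proteases, cysteine proteases that cut ubiquitin from other proteins and so change how long these last or where they go. The mouse copies were first known as DUB genes, immediate-early genes of blood cells that respond to cytokines: *Usp17la* is Dub1, which answers to interleukin-3, *Usp17lb* is Dub1a, *Usp17lc* is Dub2, which answers to interleukin-2, *Usp17ld* is Dub2a and *Usp17le* is Dub3. Members of the family are also transcribed in the early embryo, with the genes of the first wave of zygotic transcription.

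All 5 genes lie on chromosome 7 of GRCm38 (GENCODE M21), inside a 1.61 Mb region dense in olfactory receptor genes. *Usp17ld* (103249737 to 103252505, minus strand) and *Usp17lc* (103415072 to 103419880, plus strand) lie at one end, 163 kb apart. After a gap of 1.35 Mb follow *Usp17le* (104768049 to 104777470, minus strand), *Usp17lb* (104840257 to 104842603, minus strand) and *Usp17la* (104857009 to 104862667, plus strand), with 14.4 kb between the last pair. The longest annotated transcripts have 2 exons in *Usp17lb*, *Usp17lc* and *Usp17ld* and 3 in *Usp17la* and *Usp17le*, and the coding sequence runs from 1404 bases in *Usp17lb* to 1638 bases in *Usp17lc* and *Usp17ld*. None of the 5 overlaps an annotated gene on the opposite strand, and *Usp17lc* overlaps the microRNA gene *Gm25774* on its own strand.

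Coding sequences of *Usp17lc* and *Usp17ld* were 98.4% identical over 1638 aligned bases, and the other pairs ranged from 90.7% (*Usp17lb* and *Usp17le*) to 94.7% (*Usp17la* and *Usp17le*). The stretch below shows how a read of 75 bases, the read length of the study, tells them apart. Of the ungapped stretches in which all 5 sequences differ, it is the one with the most differing positions, 23 of 75. Capitals mark a base carried by fewer members than the commonest base at its position. It lies at chr7:104861525-104861599 (plus strand) in *Usp17la*, chr7:104840312-104840386 (minus) in *Usp17lb*, chr7:103418892-103418966 (plus) in *Usp17lc*, chr7:103250257-103250331 (minus) in *Usp17ld* and chr7:104768422-104768496 (minus) in *Usp17le* of GRCm38, inside the last coding exon, and in *Usp17lb* it takes in the stop codon.
Usp17la: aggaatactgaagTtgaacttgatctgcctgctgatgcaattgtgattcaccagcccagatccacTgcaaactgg
Usp17lb: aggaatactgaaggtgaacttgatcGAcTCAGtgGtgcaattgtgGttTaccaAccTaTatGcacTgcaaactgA
Usp17lc: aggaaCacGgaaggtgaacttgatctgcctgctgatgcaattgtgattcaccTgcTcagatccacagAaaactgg
Usp17ld: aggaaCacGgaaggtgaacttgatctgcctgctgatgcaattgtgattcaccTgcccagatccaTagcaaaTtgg
Usp17le: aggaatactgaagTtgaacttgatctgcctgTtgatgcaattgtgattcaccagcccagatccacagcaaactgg
*Usp17lb* has 15 such bases, against 5 each in *Usp17lc* and *Usp17ld* and 2 each in *Usp17la* and *Usp17le*.

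Over whole transcripts, the share of 75-base windows found in no other annotated gene was 92.3% for *Usp17la*, 84.8% for *Usp17lb*, 83.9% for *Usp17le*, 64.3% for *Usp17lc* and 56.6% for *Usp17ld*. *Usp17ld* shared 831 of its 1913 windows with *Usp17lc*, while *Usp17lb* shared 107 of its 1484 windows with *Usp17la* and 71 with *Usp17lc*. How reads matching several genes were counted is not stated in the study's methods, so the values of single copies are uncertain, those of *Usp17lc* and *Usp17ld* most of all. Outside the family, windows were shared with *Gm5053*, a processed pseudogene 85.2% identical to *Usp17le* that is listed at 0.0281 in *Mfn1*-/- and at the lowest value in WT oocytes, with *Adgrv1*, at 0.0102 and 0.0126, and with the pseudogene *Usp17le-ps*, which has no row.

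**Figure D1:**
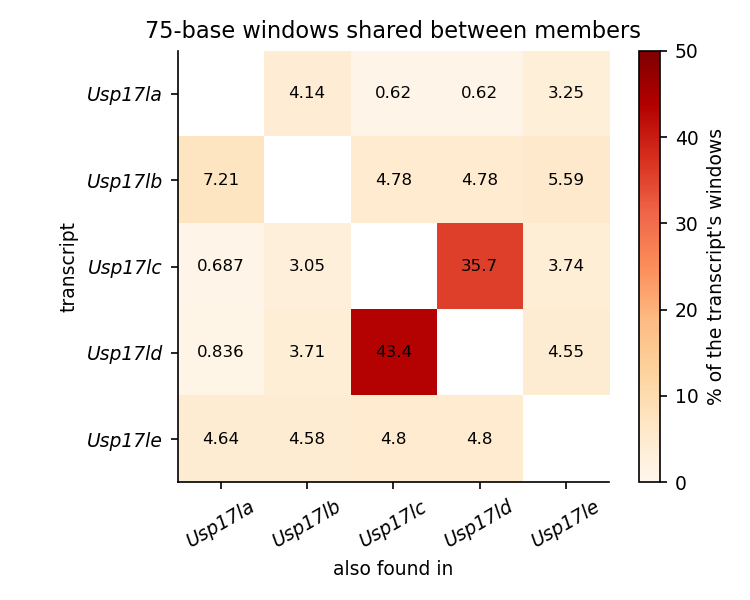
Percent of the 75-base windows of each member's longest transcript (rows) that are also found in a transcript of another member (columns), with the diagonal left blank. *Usp17lc* and *Usp17ld* share 35.7% and 43.4% of their windows with each other, and every other pair shares under 10%.

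All 5 members had a higher mean in *Mfn1*-/- than in WT oocytes. *Usp17lb* had the largest difference, with 5.24 normalized counts on average in *Mfn1*-/- against 0.098 in WT, a ratio of 53.5. *Usp17lc* had 2.27 against 0.15, a smaller ratio of 15.1 at the next highest level. For *Usp17le* the means were 0.749 and 0.027, a ratio of 27.7. *Usp17la* and *Usp17ld* had 0.388 and 0.272 in *Mfn1*-/- oocytes, and both are listed at 0.01 in WT, below which no mean of the table goes, so no ratio is given for them. That lowest value stands for 922 genes in WT and 937 in *Mfn1*-/- oocytes.

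**Figure D2:**
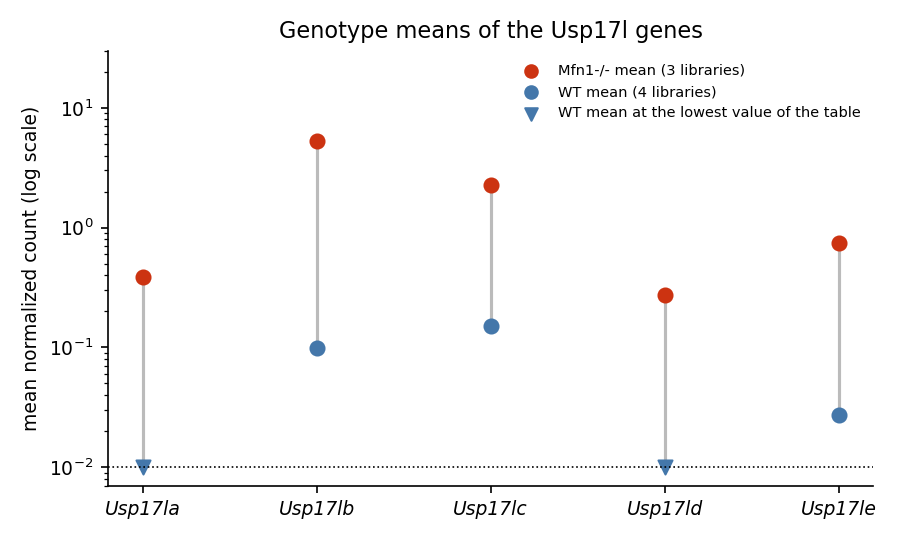
Mean normalized count of each Usp17l gene on a log axis, in *Mfn1*-/- (red, 3 libraries) and WT oocytes (blue, 4 libraries). Triangles on the dotted line are WT means at the lowest value of the table, 0.01, and all 5 red points lie above their blue partner, drawn without error bars since only means are given.

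Added up, the family stood at 8.92 in *Mfn1*-/- and 0.295 in WT. These sums do not depend on which copy a counted read was given to only if the normalized counts had not been divided by length. Whether they had been is not stated. *Usp17lb*, *Usp17lc* and *Usp17le*, whose WT means lie above the lowest value, summed to 8.26 and 0.275, a ratio of 30. *Usp17lb* made up 58.8% of the family's sum in *Mfn1*-/- and 33.2% in WT oocytes, and *Usp17lc* 25.5% and 50.8%. Divided by the longest transcript, which assumes that the normalized counts had not been divided by length, the order in *Mfn1*-/- oocytes was *Usp17lb* (3.36 per kb), *Usp17lc* (0.945), *Usp17le* (0.397), *Usp17la* (0.146) and *Usp17ld* (0.137). In WT oocytes *Usp17lb* (0.0629) and *Usp17lc* (0.0624) came first, followed by *Usp17le* at 0.0143 per kb. Whether neighbours in these orders differ cannot be tested from means.

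To set the members beside all genes, log2 differences were computed after adding a pseudocount of 0.1 to both means, which shrinks the difference of genes with low means. They were 4.75 for *Usp17lb*, 3.24 for *Usp17lc*, 2.74 for *Usp17le*, 2.15 for *Usp17la* and 1.76 for *Usp17ld*. All 5 were past a 2-fold difference upwards, as were 4.87% of the 22877 rows, while 2.75% were past it downwards. Past a 4-fold difference were 4 of the 5, all but *Usp17ld*, and 0.704% of all rows. Since the family was chosen on this contrast, nothing is read from these shares. The median of the 5 was 2.74, against 0.04 over all rows and 0.16 over the 6226 rows whose mean across libraries reached 1. With that shift of 0.16 subtracted, the members ranged from 1.60 to 4.59. A mean across libraries of at least 0.1 was reached by 5 members and a mean of at least 1 by *Usp17lb* and *Usp17lc*. Apart from *Usp17lc* at 0.1, these levels were reached only through the *Mfn1*-/- means, so they are no support for the difference.

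**Figure D3:**
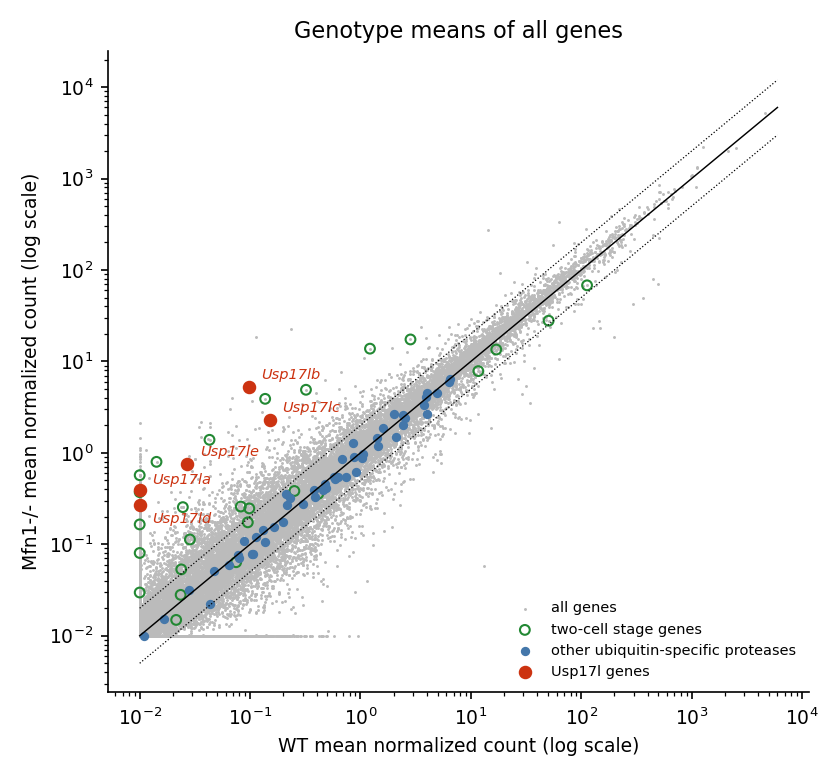
*Mfn1*-/- against WT mean normalized count for every gene, both axes logarithmic, with the line of equality and dotted lines at a 2-fold difference. The Usp17l genes (red) lie above the upper dotted line, the other ubiquitin-specific proteases (blue) lie along the line of equality, and the two-cell stage genes (green circles) spread from below equality to the height of the Usp17l genes.

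In the order of log2 differences *Usp17lb* was at rank 3, after *Fgf21* and *Ptgds* and before *Herpud1*. *Usp17lc* was at rank 32 next to the linker histone gene *Hist1h1c*, *Usp17le* at 64 next to *Gnpda1*, *Usp17la* at 132 and *Usp17ld* at 242. The pair of means most like that of *Usp17lb*, by distance on the log2 scale over the 2 genotypes, was that of *Herpud1*, a gene of the endoplasmic reticulum stress response (3.97 and 0.0683, distance 0.46). It was followed by *Pramef25*, a PRAME family gene (3.9 and 0.137, distance 0.49), *Sohlh1*, a germ cell transcription factor (3.68 and 0.105, distance 0.50), *Hes5*, a target of Notch signalling (3.02 and 0.0658, distance 0.82), and *Gm8332* (2.81 and 0.128, distance 0.90). With 2 points per gene this likeness says only that the means are close.

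Between the outermost members lie 118 other annotated genes, 74 of them named as olfactory receptors, and 20 of the 118 have a row. Their median log2 difference was -0.07, with 1 past 2-fold upwards and 2 downwards, against 4.87% and 2.75% of all rows. *Trim12c*, one of the tripartite motif genes of the region, had 0.484 in *Mfn1*-/- and 0.124 in WT oocytes, a log2 difference of 1.38, and it overlaps a small nuclear RNA gene on its own strand. The olfactory receptor gene *Olfr624* (0.784 and 1.88, log2 difference -1.16) and the receptor pseudogene *Olfr650-ps1* (0.739 and 1.96, -1.30) were lower. The pseudogene *Gm4887*, which lies between *Usp17le* and *Usp17lb*, had 2.53 and 2.82, a log2 difference of -0.15. Among the 10 annotated genes on each side of the cluster, the 6 with a row ranged from -0.48 to 0.52.

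**Figure D4:**
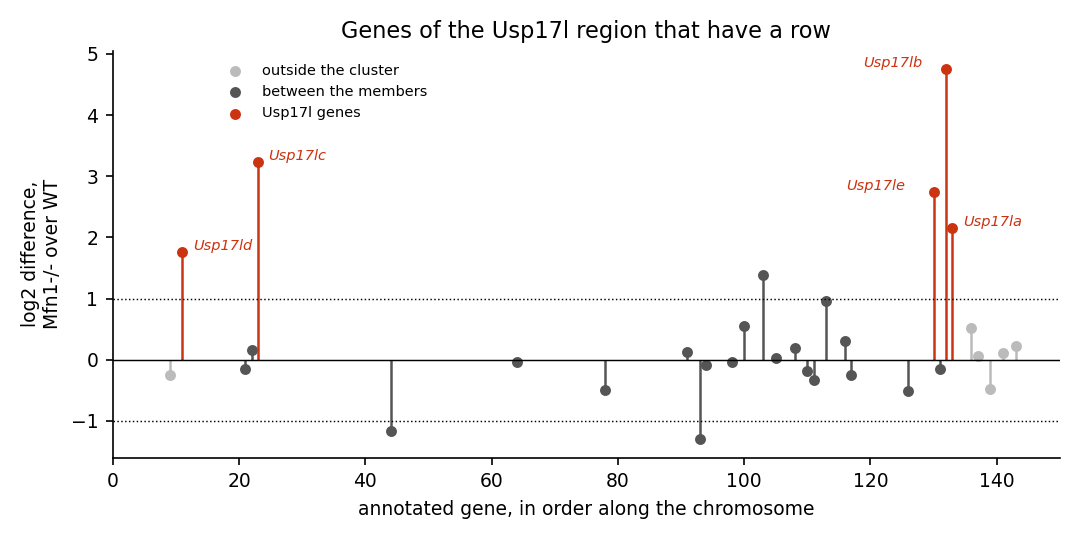
Log2 difference (*Mfn1*-/- over WT, pseudocount 0.1) of every gene with a row in the Usp17l region, in order along the chromosome, including 10 annotated genes on each side. The 5 Usp17l genes (red) reach 1.76 to 4.75, the 20 genes between them (dark) run from -1.30 to 1.38, and the flanking genes (light) lie within 2-fold.

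RefSeq gives a promoter on GRCm38.p6 for 4 of the 5 members, *Usp17le* being the other. The 100 bases below are shown because the means of these members differed in the same direction. They end 3 bases after a TATA-like element (capitals), placed by aligning each promoter with that of *Usp17lc*, and lie at chr7:104856880-104856979 (plus strand), chr7:104842605-104842704 (minus), chr7:103416518-103416617 (plus) and chr7:103252606-103252705 (minus).
Usp17la: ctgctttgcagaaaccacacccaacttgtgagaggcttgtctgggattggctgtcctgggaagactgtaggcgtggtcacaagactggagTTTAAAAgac
Usp17lb: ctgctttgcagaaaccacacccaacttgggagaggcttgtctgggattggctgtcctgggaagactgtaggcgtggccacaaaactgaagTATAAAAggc
Usp17lc: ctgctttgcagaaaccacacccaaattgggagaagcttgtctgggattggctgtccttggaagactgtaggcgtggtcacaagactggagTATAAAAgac
Usp17ld: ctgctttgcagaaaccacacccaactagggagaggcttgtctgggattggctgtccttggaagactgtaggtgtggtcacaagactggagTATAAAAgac
The 4 blocks were 93% to 96% identical. TATAAAA stands in *Usp17lb*, *Usp17lc* and *Usp17ld*, and *Usp17la* has TTTAAAA at that place. The element begins 31 bases before the RefSeq start of *Usp17lb* and 46, 88 and 110 bases before those of *Usp17la*, *Usp17lc* and *Usp17ld*. These distances hold for RefSeq starts only. By the GENCODE positions given above, the block of *Usp17lc* lies inside the annotated gene. Those of *Usp17la*, *Usp17lb* and *Usp17ld* lie before the GENCODE start.

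Motifs were searched on both strands of the 32851 RefSeq promoters of 300 bases, and were all chosen after the sequences were seen. The members' promoters are near-identical copies, so a motif found in all 4 does not count as 4 separate findings. TATAAAA was found in 3 of the 4 members' promoters and in 5.48% of all promoters. The CCAAT box was found in all 4 and in 37.4% of all promoters. The letters AACCACA were likewise in all 4, against 5.27% of all promoters. Overlapping them in the members, CACACCC was also in all 4, against 7.95%. TGANTCA, in which N is any base, takes in the sites bound by AP-1 factors and also other sequences. It was found in 0 of the 4 and in 7.81% of all. Of 17 promoters of 16 two-cell stage genes, TATAAAA was found in 4, those of *Zscan4b*, *Zscan4c*, *Zscan4d* and *Zscan4f*. The *Zscan4* genes are close paralogs, so motifs they share, here and below, do not count as separate findings. In the same 17 promoters the CCAAT box was found in 11 and CACACCC in 3. The letters AACCACA were in 0 of the 17, which are too few promoters to set apart from the 5.27% of all. TGANTCA, absent from the members' windows, was in 6 of the 17, those of *Zscan4c*, *Zscan4d* and *Zscan4f* included, whether or not as an AP-1 site. A motif of 11 letters known for the DUX homeodomain factor was in 0 of the 4, in 0 of the 17 and in 0.0335% of all promoters.

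Of 51 other ubiquitin-specific protease genes listed, 50 have a row. In either direction 0 of these were past a 2-fold difference, against 4.87% of all rows upwards and 2.75% downwards. Their median log2 difference was -0.05, with a range from -0.56 (*Usp46*) to 0.55. The most abundant of them, *Usp16*, a histone H2A deubiquitinase, had 6.41 in *Mfn1*-/- and 6.49 in WT oocytes. *Usp30*, the mitochondrial outer membrane member that opposes mitophagy, had 0.91 and 0.866, a log2 difference of 0.06.

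Among 13 proteins reported elsewhere as substrates of USP17 enzymes, 12 have a gene with a row, with a median of 0.33. Of these, 2 were past 2-fold upwards and 1 downwards, against 4.87% and 2.75% of all rows. A list this short cannot be told from these shares. *Snai2*, a transcription factor of epithelial to mesenchymal transition, had 0.249 and 0.0316 (log2 difference 1.41), and *Mcl1*, an anti-apoptotic BCL2 family gene, 3.57 and 1.64 (1.08, and 0.92, within 2-fold, with the shift of all genes subtracted). *Ddx58*, the RIG-I sensor of viral RNA, had 0.327 and 1.03 (-1.40). *Cdc25a*, the cell cycle phosphatase known as a target of human DUB3, had 1.68 and 1.35 (0.30), and *Rce1*, the protease that finishes the processing of Ras proteins, had the highest mean of the list, 34.4 and 24.3 (0.50). These are transcript levels, and say nothing of the proteins.

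A list of 14 genes held cytokine receptor, JAK and STAT genes upstream of the Dub genes in blood cells, and *Cish*, an inhibitor of this signalling. Of the 14, 11 have a row, with a median of 0.02. Past 2-fold were 0 upwards and 1 downwards, against 4.87% and 2.75% of all rows. That 1 is *Jak2*, the kinase of the interleukin-3 receptor, at 0.667 and 1.47 (log2 difference -1.03). *Csf2ra* had 1.19 and 0.861 (0.42), and *Il3ra* stood at 0.0172 and 0.0156.

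The 2-cell embryo is where the family is best known in development, so genes of that stage were set beside it. Of 31 listed, 26 have a row, with a median log2 difference of 0.72. Past 2-fold were 10 upwards and 0 downwards, against 4.87% and 2.75% of all rows. Close paralogs among the 10 do not count as separate findings. The highest was *Pramef25*, at 3.9 in *Mfn1*-/- and 0.137 in WT oocytes (4.08). Of the *Zscan4* genes, which mark the 2-cell stage and act in telomere maintenance, *Zscan4f* had 4.9 and 0.321 (3.57), *Zscan4c* 13.8 and 1.22 (3.40), *Zscan4d* 17.4 and 2.84 (2.57) and *Zscan4a* 0.255 and 0.0246 (1.51), while *Zscan4b* (0.05) and *Zscan4e* (0.31) were within 2-fold. *Zscan4* genes are close paralogs too, so their split is as uncertain. *Gm13119* (3.38) and *BC080695* (2.98), the latter overlapping another gene on its strand, were also past 2-fold, and *Gm2022*, *Gm4027* and *Gm8300* were higher against WT means at the lowest value. *Duxf3*, the gene of the transcription factor that activates this program, had 0.113 and 0.0285 (0.73). Of the 26, 19 had a higher mean in *Mfn1*-/- than in WT oocytes and 7 a lower one, and the list sums to 163 and 198. Among those within 2-fold, *Gm12794* was higher, at 0.259 and 0.0824 (0.98). Lower ones included *Tcstv1*, the most abundant, at 68 and 113 (-0.73), and *Zfp352* at 0.0149 and 0.0214 (-0.08). *Tcstv3* was also lower, at 27.9 and 50.7 (-0.86, past 2-fold downwards once the shift of 0.16 is subtracted).

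**Figure D5:**
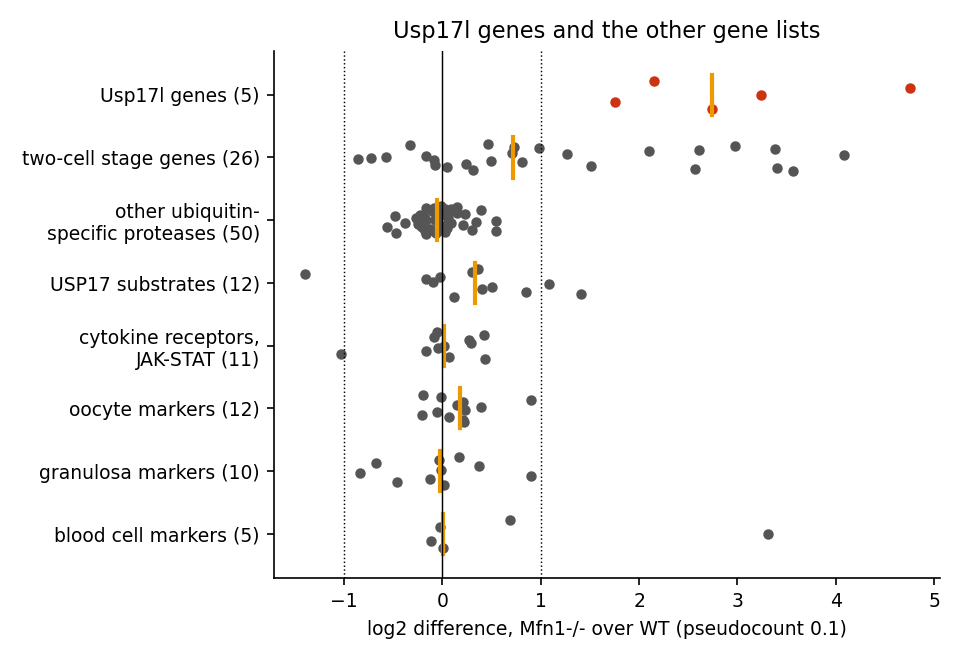
Log2 difference (*Mfn1*-/- over WT, pseudocount 0.1) of each gene with a row, by list, with the number of genes in brackets. Orange bars are medians, 2.74 for the Usp17l genes, 0.72 for the two-cell stage genes and -0.05 for the other ubiquitin-specific proteases, and dotted lines mark a 2-fold difference.

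Oocyte markers were high in both genotypes, from 26.6 (*Nlrp5*) to 1310 (*Ooep*) in *Mfn1*-/- and from 18.7 (*Figla*) to 1120 (*Ooep*) in WT oocytes. Past 2-fold were 0 of 12, against 4.87% of all rows upwards and 2.75% downwards. Of 12 granulosa cell markers 10 have a row and 0 were past 2-fold, with 4 above and 6 below their WT mean and a median log2 difference of -0.02. Their means sum to 2.29 and 1.63, most of it *Inha*, at 1.87 and 0.954 (0.90). The steroid enzyme genes *Hsd17b1*, at 0.0412 and 0.152 (-0.84), and *Cyp19a1*, at 0.0846 and 0.193 (-0.67), were lower in *Mfn1*-/- oocytes, as was *Nr5a2*, at 0.0974 and 0.171 (-0.46). *Amh* stood at 0.0349 and 0.02 and *Fshr* at 0.016 and 0.0171. Of 10 blood cell markers 5 have a row, of which *Cd68*, a lysosomal gene of macrophages and other cells, had 7.58 and 0.672 (log2 difference 3.31). Others stood lower, with *Csf1r* at 0.0316 and 0.0426, *Itgam* at 0.0109 and 0.01 and *Cd3e* at 0.0131 and 0.0147. In pools of 5 oocytes, more cells of a kind and more RNA per cell cannot be told apart, and the part of *Cd68*-expressing cells in the members' difference was not tested. Whether a few oocytes or all of them carried the Usp17l transcripts was not tested.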

How the data were processed

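Poly(A) RNA of 5 oocytes per library was amplified with Smart-Seq2, made into Nextera XT libraries and read as 75-base pairs. Adapters were removed with Cutadapt and poor reads with FASTX-Toolkit by the authors, who then ran STAR on mouse genome GRCm38/mm10 and obtained counts per gene. The annotation, the normalization, the strand setting and the treatment of reads matching several genes are not given in the sources used here. The signal in the deposited table is the authors' mean of normalized counts per genotype and their sum over libraries, which weights the *Mfn1*-/- mean by 3 and the WT mean by 4 (within 1% in 100% of rows), whereas the study names 3 samples per genotype. Its other columns hold the authors' own p-values, adjusted p-values, ratios and fold changes and were not used. There were 0 unused columns of per-sample values.

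Samples were grouped by title. Log2 differences were taken between the genotype means plus 0.1 and called past 2-fold. The planned limma fit, the leave-one-out fits and the fit with a replicate block need values of single libraries and could not be run. The members and lists were chosen with earlier results of these data known. The genes named are the members, *Mfn1*, the list genes past 2-fold (at most 6 a list), the most abundant gene of each list and *Usp30*, genes beside the cluster, genes next to the members in rank and the 5 nearest to *Usp17lb*. Other genes, among them *Cdc25a*, *Duxf3*, the remaining two-cell stage genes and the markers, were named after their values were seen. The values of 1 blood cell marker are not reported here.

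Positions and transcripts came from GENCODE M21 on GRCm38, and promoters from RefSeq on GRCm38.p6. Coding sequences of the longest transcripts were aligned in pairs with Biopython 1.88 and together with MAFFT 7.526, and relatives were sought with blastn 2.17.0 (at least 300 bases at 80% identity). Values were computed in Python 3.11.15 with numpy 2.4.6 and pandas 2.3.3 and plotted with matplotlib 3.10.9. On simulated data, fold calls and identities were tested beforehand. The fold calls were tested for genes with a WT mean of at least 1, above that of every member, so this says nothing of calls at the members' levels.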

Additional observations from a re-analysis of the deposited data

How the results depend on the processing

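No paired analysis was possible because the table holds 1 mean per genotype, and no library could be left out for the same reason. Depth per library is unknown, so how many reads stand behind the low means of *Usp17la* and *Usp17ld* cannot be said. The 37 values of single members under the alternatives come from the same genotype means and ran from 0.33 to 5.74 on the log2 scale. All 37 were above 0, which a change of pseudocount, minimum mean or threshold cannot alter. Only the settings that rescale the means could have turned the direction, so its constancy says little. Of the 32 set against a 2-fold difference, 29 were past it. The exceptions were *Usp17la*, *Usp17ld* and *Usp17le* at the largest pseudocount.

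At a pseudocount of 1, 2 members were past 2-fold, the median log2 difference was 0.77, that of the family sum 2.94, 5 two-cell stage genes were higher, and of all rows 209 were higher and 110 lower. At a pseudocount of 0.01 the median was 4.31, the sum 4.87, and 2395 rows were higher and 1516 lower. With no pseudocount, chosen after seeing the data, these were 4.79, 4.92, 2904 and 1901, and 16 two-cell stage genes were higher. Among the 6226 rows with a mean of at least 1, 339 were higher and 202 lower. Of 8 two-cell stage genes among them 4 were higher, and *Pramef25* and *Zscan4f* reach that mean only through *Mfn1*-/- oocytes. The 2 members that remain, *Usp17lb* and *Usp17lc*, also reach it only that way (median 4.0, sum 4.45). With their WT means both had to be past 2-fold, so nothing is read from this. At a 4-fold threshold 161 rows were higher and 72 lower. Subtracting the median of expressed genes gave a median of 2.58 and a sum of 4.35, and turned the split of all rows from 1114 higher and 628 lower to 818 and 916 (63.9% higher before, 47.2% after). Scaling both genotypes to the same sum gave 2.63 and 4.38, with 887 higher and 757 lower (54% higher). Chosen after seeing the data, leaving out the members at the lowest WT mean left 3, all past 2-fold (median 3.24, sum 4.48), and adding *Usp17lc* and *Usp17ld* up gave a median of 3.04. Of the substrate genes, 1 was higher after either scaling and 0 at a pseudocount of 1.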
